A study of Rattus norvegicus with 6 samples.

Results

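Cardiomyocyte sarcomere genes encode the filaments and anchoring proteins with which heart muscle contracts. The set was chosen by symbol and comprised 10 genes, namely Myh6, Myh7, Mybpc3 and Myl7 of the thick filament, Actc1, Tnnt2, Tnni3 and Tnnc1 of the thin filament, Actn2 of the Z-disc, and Ttn, which encodes titin. Of these, 9 had a row among the 21857 gene symbols of the count tables, and the expression of Ttn was not analysed here. Gene expression was measured by RNA sequencing in cardiac fibroblasts from the hearts of newborn Sprague-Dawley rats, at most 3 days old (the strain entry of the labels reads "Noway"). The cells were separated from heart muscle cells by differential adhesion, a step that enriches fibroblasts and leaves no guarantee that every muscle cell is removed. The Vector group, whose genotype is labelled WT, received the empty pcDNA 3.1 plasmid, and the group labelled FTO overexpression received the plasmid carrying rat FTO cDNA, each for 48 h and each with 3 libraries. FTO is an RNA demethylase that removes methyl groups from N6-methyladenosine. The labels name no batch or date and do not say whether the libraries came from separate cultures or animals, so the p-values measure only the spread between these libraries, which may be technical. The sources used here do not state whether the sequenced cells had been exposed to hypoxia.

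In a sarcomere, myosin heads of the thick filament pull on actin of the thin filament. Calcium bound by troponin C moves the troponin complex and tropomyosin off the myosin-binding sites of actin, troponin T ties the complex to tropomyosin, and troponin I holds contraction off when calcium is low. Thin filaments are anchored by alpha-actinin at the Z-disc, and titin spans from the Z-disc to the middle of the thick filament. In the rodent ventricle, Myh7 and Tnni1 are the fetal isoforms, and Myh6 and Tnni3 take their place around and after birth. Fibroblasts build actin and myosin bundles too, but from non-muscle and smooth muscle relatives of these proteins, so that the genes described here are usually read as marks of muscle cells.

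Total counts ranged from 13178952 to 17857999 per library, and a floor of 3 counts corresponded to 0.168 to 0.228 CPM (counts per 1000000 counts of the library). The gene carried by the plasmid was checked first. The paper reports that FTO transfection was checked by qRT-PCR and at the protein level. It also reports less N6-methyladenosine by dot blot. Whether the cells of those assays were the ones sequenced is not stated in the sources used here. Fto was at 88.3 ± 1.20 CPM in the Vector libraries and 92.3 ± 1.32 CPM in those labelled FTO (SD, n = 3 each), a log2 fold change of 0.06 (SE 0.0468) that did not pass edgeR's quasi-likelihood test with Benjamini-Hochberg adjustment (adjusted p = 0.239), although every library labelled FTO was above every Vector library. The group is therefore named by its label throughout. By that test, 65.9% of the 12941 genes tested were called at an adjusted p under 0.05, 33.2% with a higher and 32.8% with a lower level in the libraries labelled FTO, and for 70.3% of genes no CPM value of either group lay within the range of the other. The median log2 fold change of all genes tested was 0.00.

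To determine how the sarcomere genes differed between the groups, their counts were scaled to CPM with TMM factors and tested in the fit over all genes. All 9 genes passed the test, 8 of them rising and 1 falling from Vector to the libraries labelled FTO, against 65.9% of all genes called in either direction. At the threshold given in the study's methods, an unadjusted p under 0.05 and a log2 fold change of at least 1 in either direction, 6 of the 9 genes were called, all higher (Myh6, Mybpc3, Myl7, Actc1, Tnni3 and Actn2), against 19.6% of all genes in either direction and 10.4% higher. The groups did not overlap for any of the 9 genes, beside 70.3% of all genes tested without overlap. The median log2 fold change of the 9 genes was 1.16, with a range from -0.25 for Tnnt2 to 1.89 for Tnni3. Their summed level rose from 1489 to 1508 CPM in the Vector libraries to 2161 to 2183 CPM in those labelled FTO. In these bulk libraries, more or fewer muscle cells in the culture and more or less RNA per cell, in muscle cells or in fibroblasts, cannot be told apart. Levels are counts that were not divided by transcript length, so they are compared between libraries and not between genes.

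**Figure D1:**
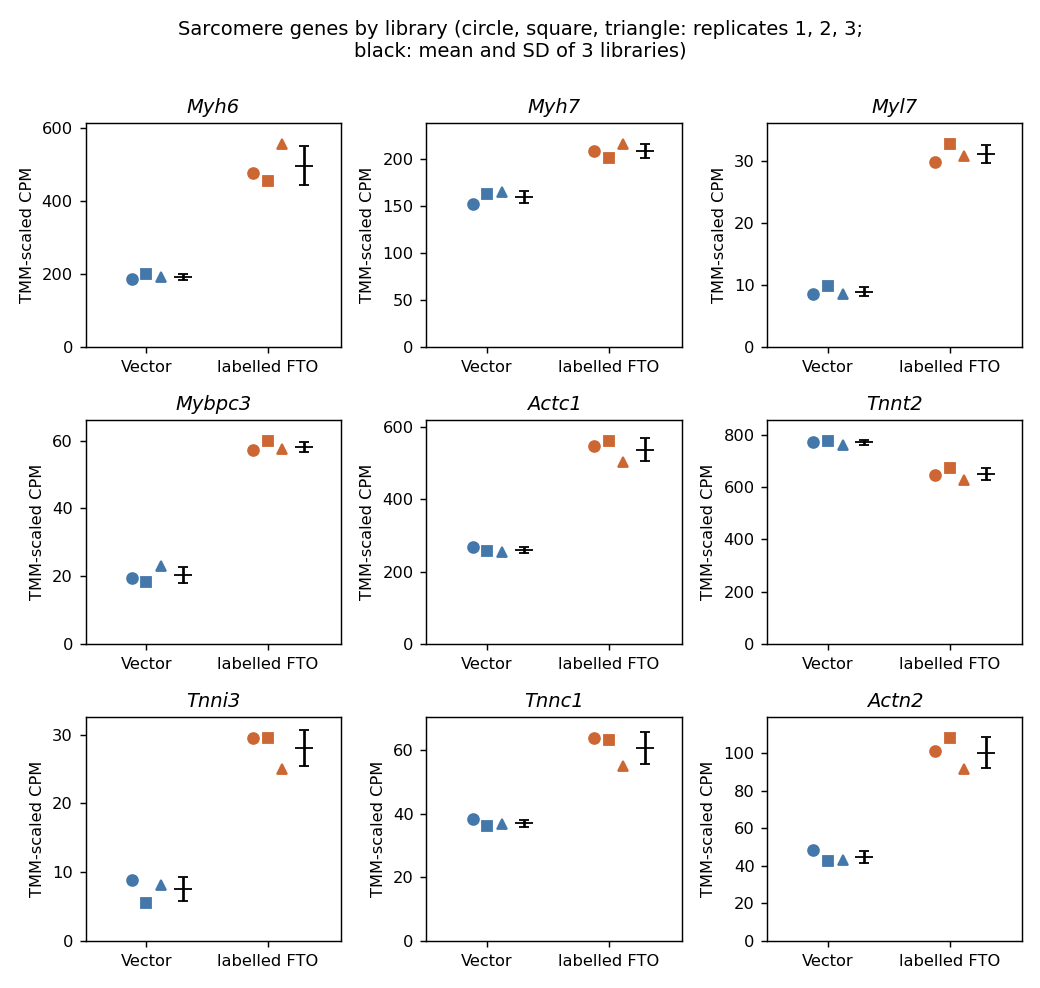
TMM-scaled CPM (vertical axes, starting at 0, with a scale of their own in each panel) of the 9 sarcomere genes in the 3 Vector libraries (blue) and the 3 libraries labelled FTO (orange). Points are libraries and black bars are the mean and SD of 3. In 8 panels the libraries labelled FTO lie above all Vector libraries, and in the panel of Tnnt2 they lie below.

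Upstream sequences of 3 of the genes are shown because they hold binding motifs of muscle transcription factors and belong to genes that moved by different amounts or in opposite directions. Each is the 250 bases before the gene's RefSeq start in GRCr8, read 5′ to 3′ on the gene's strand, with motif matches in capitals. This is not the build the counts were made on, which the submitters' processing notes give as rn6. Mybpc3 lies on the plus strand (chr3:97550811-97551060), Myh6 on the minus strand (chr15:32411698-32411947) and Tnnt2, whose first of 2 RefSeq starts was used, on the plus strand (chr13:49818873-49819122).
Mybpc3: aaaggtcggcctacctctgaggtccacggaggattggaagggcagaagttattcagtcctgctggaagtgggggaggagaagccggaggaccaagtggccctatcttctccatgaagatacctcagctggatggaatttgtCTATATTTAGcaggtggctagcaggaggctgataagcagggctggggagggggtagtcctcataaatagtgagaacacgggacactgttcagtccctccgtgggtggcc
Myh6: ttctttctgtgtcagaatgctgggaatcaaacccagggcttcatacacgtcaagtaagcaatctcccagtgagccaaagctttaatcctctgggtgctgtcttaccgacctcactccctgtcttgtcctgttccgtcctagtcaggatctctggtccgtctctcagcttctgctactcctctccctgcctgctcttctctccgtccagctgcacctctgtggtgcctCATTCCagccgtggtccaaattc
Tnnt2: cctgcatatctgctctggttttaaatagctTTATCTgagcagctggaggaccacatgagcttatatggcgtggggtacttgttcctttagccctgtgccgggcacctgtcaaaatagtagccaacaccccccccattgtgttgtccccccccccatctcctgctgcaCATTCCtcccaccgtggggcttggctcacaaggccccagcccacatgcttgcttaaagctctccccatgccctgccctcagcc

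Windows were found for 9 of the 10 genes (Tnnc1 had none) and numbered 10. The capitals mark in Mybpc3 a match to the MEF2 site, CTATATTTAG, 109 to 100 bases before the start, in Myh6 the MCAT element CATTCC, bound by TEAD factors, 23 to 18 bases before the start, and in Tnnt2 the same CATTCC 83 to 78 bases before the start together with TTATCT, the reverse complement of the GATA motif AGATAA, 220 to 215 bases before it. Both strands were searched in each case. The MEF2 site was in 2 of the 10 windows (Mybpc3 and Ttn) and in 2.96% of 33469 windows of the same length over all genes, CATTCC in 2 (Myh6 and Tnnt2) and 12.1%, the GATA motif in 2 (Tnni3 and Tnnt2) and 10.3%, and the CArG box, the site of serum response factor, in 0 and 1.5%. The MCAT element was thus held by 1 gene that was higher and 1 that was lower in the libraries labelled FTO. A match describes letters in this window and is not evidence of binding.

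Of the thick filament genes, both cardiac myosin heavy chains were higher in the libraries labelled FTO, Myh6 by more than Myh7. Myh6, the fast alpha heavy chain, was at 185, 201 and 191 CPM in Vector replicates 1 to 3 and at 477, 455 and 556 CPM in replicates 1 to 3 labelled FTO. The lowest library labelled FTO stood above the highest Vector library by more than the whole range of either group. The means were 192 ± 7.95 and 496 ± 53.0 CPM (SD, n = 3), a fold change of 2.58 (95% confidence interval 2.35 to 2.84, adjusted p = 3.87e-11 by edgeR's quasi-likelihood test). Myh7, the slow beta heavy chain, was at 152, 163 and 165 CPM in Vector and at 209, 201 and 216 CPM in the libraries labelled FTO. Its groups were also apart, but closer together, with means of 160 ± 6.69 and 209 ± 7.53 CPM, a fold change of 1.31 (1.22 to 1.40, edgeR adjusted p = 3.07e-06). Both genes lie side by side in the genome and are close in sequence, and the counting used on reads that match both is not given in the sources used here, so the split of counts between them is uncertain.

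Mybpc3 encodes cardiac myosin binding protein C, which braces the thick filament and tunes the movement of myosin heads. Its levels were 19.5, 18.3 and 23.1 CPM in Vector and 57.3, 60.0 and 57.5 CPM in the libraries labelled FTO, 2.87-fold higher (2.55 to 3.22, edgeR adjusted p = 1.44e-10). Myl7, the regulatory light chain of the atria and the early heart, was at 8.56, 9.73 and 8.45 CPM in Vector and at 29.7, 32.7 and 30.8 CPM in the libraries labelled FTO. The Myl7 groups were far apart relative to their spread, with means of 8.91 ± 0.709 and 31.1 ± 1.50 CPM and a fold change of 3.48 (3.04 to 3.98, edgeR adjusted p = 1.11e-10). These were 2 of the less abundantly counted genes of the set, with 267 to 1029 counts per library for Mybpc3 and 117 to 551 for Myl7.

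Of the thin filament genes, Actc1, Tnni3 and Tnnc1 were higher and Tnnt2 was lower in the libraries labelled FTO. Actc1, the cardiac alpha-actin, was at 268, 256 and 253 CPM in Vector and at 548, 562 and 503 CPM in the libraries labelled FTO, a fold change of 2.07 (1.93 to 2.22, edgeR adjusted p = 2.69e-11). Tnni3, the adult cardiac troponin I, had the largest fitted fold change of the 9 genes and the lowest counts, 83 to 447 per library. Its levels were 8.93, 5.57 and 8.10 CPM in Vector and 29.5, 29.5 and 25.0 CPM in the libraries labelled FTO, 3.71-fold higher (3.05 to 4.53, edgeR adjusted p = 6.45e-09). Replicate 2 was the lowest of the Vector libraries for Tnni3, and the interval of this gene was the widest of the set.

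Tnnc1, the troponin C of heart and slow muscle, was at 38.3, 36.0 and 36.8 CPM in Vector and at 64.0, 63.1 and 55.0 CPM in the libraries labelled FTO. The groups were apart and the fold change was 1.63 (1.48 to 1.81, edgeR adjusted p = 2.86e-07). Tnnt2, the cardiac troponin T, went the other way, at 772, 776 and 761 CPM in Vector and 646, 672 and 628 CPM in the libraries labelled FTO. Every library labelled FTO was below every Vector library, with means of 770 ± 7.94 and 649 ± 22.0 CPM and a fold change of 0.843 (0.795 to 0.893, edgeR adjusted p = 5.25e-05). Tnnt2 had the highest counts of the set, 8897 to 11571 per library, so its small difference was measured closely. The transcripts of troponin T, I and C, proteins that act as 1 complex in the filament, therefore moved in different directions and by different amounts. These libraries do not measure protein.

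Actn2 encodes the alpha-actinin of the cardiac Z-disc, which cross-links actin filaments of neighbouring sarcomeres. Its levels were 48.3, 42.8 and 43.1 CPM in Vector and 101, 108 and 91.6 CPM in the libraries labelled FTO, with means of 44.7 ± 3.09 and 100.3 ± 8.31 CPM. The groups did not overlap and the fold change was 2.24 (2.02 to 2.48, edgeR adjusted p = 8.03e-10). Within the group labelled FTO, replicate 3 had the highest levels of Myh6 and Myh7 and the lowest of Tnnt2, Tnni3, Tnnc1, Actc1 and Actn2, while Mybpc3 and Myl7 in that library were between the other values. Leaving out any 1 library kept the call and the direction of each of the 9 genes.

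**Figure D2:**
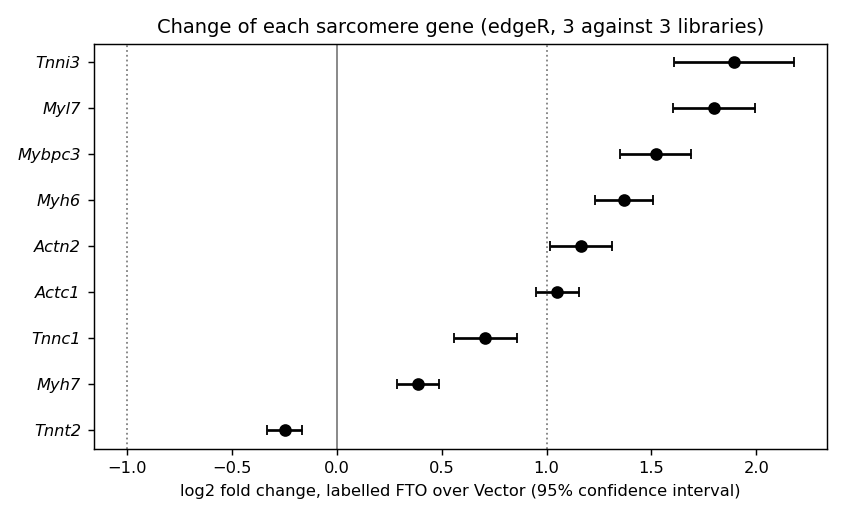
Log2 fold change of each sarcomere gene in the libraries labelled FTO over Vector (horizontal axis), with 95% confidence intervals from edgeR over 3 against 3 libraries. The solid line is no change and the dotted lines are the study's threshold of 1. The points run from -0.25 for Tnnt2 to 1.89 for Tnni3, and the intervals of Myh7, Tnnc1 and Tnnt2 lie inside the dotted lines.

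To determine whether the sarcomere genes changed by unequal amounts, the log2 ratio of counts was taken within each library for all 36 pairs, a measure that needs no scaling between libraries. For 30 of the 36 pairs the ratios of the groups did not overlap, and for 6 they did. The 36 pairs were made from 9 genes and are not independent of each other. The same share over pairs of other genes was not computed. For single genes, the groups did not overlap for 70.3% of all genes tested. The exact two-sided permutation test gave p = 0.1 for each of those 30 pairs (0.12 after Benjamini-Hochberg adjustment over the 36), which is the smallest value that 3 against 3 libraries allow. In order of fold change from Tnni3 through Myl7, Mybpc3, Myh6, Actn2, Actc1, Tnnc1 and Myh7 to Tnnt2, the first 4 of the 8 neighbouring pairs overlapped. Genes further apart among these first 5 could still differ, since the ratios of Tnni3 to Actn2, Myl7 to Actn2, Myl7 to Myh6 and Mybpc3 to Actn2 did not overlap between the groups. The last 4 neighbouring pairs did not overlap. The ratio of Actn2 to Actc1 was higher in the libraries labelled FTO by 0.11 on the log2 scale, that of Actc1 to Tnnc1 by 0.34, that of Tnnc1 to Myh7 by 0.32 and that of Myh7 to Tnnt2 by 0.63. Each ratio put the gene with the larger fold change in these data on top, so its direction follows from that order.

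The make-up of each protein family was compared as the share of a family's counts in each library. Such a share is not divided by transcript length and does not give a ratio of molecules. Myh6 held 54.8, 55.2 and 53.7% of the counts of Myh6 and Myh7 in Vector and 69.5, 69.3 and 72.0% in the libraries labelled FTO, 15.7 points higher. Tnni3 held 30.7, 22.9 and 30.2% of the counts of Tnni1 and Tnni3 in Vector and 49.1, 46.0 and 47.0% in the libraries labelled FTO, 19.4 points higher. In both families the isoform that follows the fetal one in the rodent heart held the larger share in the libraries labelled FTO than in Vector, and the groups did not overlap. The fetal partner was higher as well, since Tnni1, the slow skeletal and fetal cardiac troponin I, went from 19.2 ± 0.796 to 31.1 ± 3.25 CPM (fold change 1.61, edgeR adjusted p = 5.50e-06).

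Myl7 held 61.9, 65.0 and 54.7% of the counts of the regulatory light chains Myl2 and Myl7 in Vector and 65.8, 73.5 and 71.2% in the libraries labelled FTO. The difference of 9.64 points was close to the spread, with 65.0% in the highest Vector library and 65.8% in the lowest library labelled FTO. Myl2, the ventricular partner, was itself higher, from 5.83 ± 1.01 to 13.2 ± 1.94 CPM (fold change 2.26, edgeR adjusted p = 4.48e-06). Tnnc1 held 99.2 ± 0.0982% of the counts of Tnnc1 and Tnnc2 in Vector and 99.7 ± 0.131% in the libraries labelled FTO, and Tnnt2 held 99.3 ± 0.160% and 99.6 ± 0.0358% of those of Tnnt1, Tnnt2 and Tnnt3. The skeletal muscle partners were also counted, Tnnc2 at 0.302 ± 0.0303, Tnnt1 at 0.788 ± 0.133 and Tnnt3 at 4.80 ± 1.22 CPM in Vector. In the libraries labelled FTO they were at 0.155 ± 0.0790, 0.0906 ± 0.0442 and 2.58 ± 0.253 CPM. Tnnc2 had 1 to 5 counts per library, so the difference in the share of Tnnc1 rests on counts near the floor. Tnnt1 had 1 or 2 counts in each library labelled FTO, below the floor of 3.

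Shares were also taken in families whose partners are proteins of smooth muscle or non-muscle cells. Actc1 held 4.42, 4.31 and 4.27% of the counts of Acta1, Acta2 and Actc1 in Vector and 51.2, 52.4 and 49.9% in the libraries labelled FTO, 46.8 points higher. The smooth muscle actin Acta2 fell at the same time from 5716 ± 65.1 to 485 ± 8.03 CPM (log2 fold change -3.56, edgeR adjusted p = 2.32e-18), so the counts of the whole family fell while those of Actc1 rose. Actn2 held 2.02, 1.76 and 1.78% of the counts of Actn1, Actn2 and Actn4 in Vector and 11.3, 12.4 and 10.5% in the libraries labelled FTO, 9.51 points higher. The non-muscle alpha-actinins fell, Actn1 by 1.45 and Actn4 by 1.72 on the log2 scale. For each of the 7 families the groups did not overlap and the exact two-sided permutation test gave p = 0.1, the smallest value possible, also after adjustment. For Tnnc1 this separation rests on the few counts of Tnnc2. For single genes, the groups did not overlap for 70.3% of all genes tested, and the same share over other families was not computed. Reads that match more than 1 actin could be split or dropped by the counting, so the actin shares are uncertain.

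**Figure D3:**
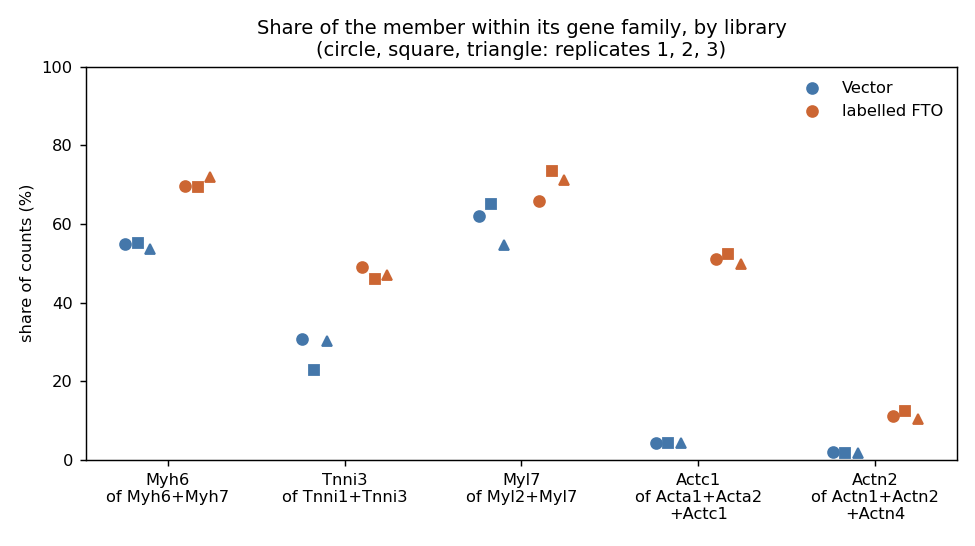
Share of counts in percent (vertical axis, 0 to 100) held by a sarcomere gene within its family (horizontal axis) in each Vector library (blue) and each library labelled FTO (orange). Points are single libraries. The groups do not overlap in any of these 5 families, with the widest gap for Actc1, 4.27 to 4.42% against 49.9 to 52.4%, and the narrowest for Myl7, 65.0% against 65.8%. For the CPM of single genes, the groups did not overlap for 70.3% of all genes tested.

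The remaining sarcomere genes were described from a list of 37, of which 36 had a row and 33 could be tested. Tcap (3 to 11 counts per library), Actn3 (4 to 10) and Myot (no counts) had too few counts for the test. Of the 33, 25 were higher, 6 were lower and 2 did not pass the test, against 33.2% higher and 32.8% lower over all genes. Their median log2 fold change was 1.11 (0.99 without replicate 3 labelled FTO), beside 1.16 for the 9 genes above and 0.00 for all genes. The largest differences were in Csrp3, the Z-disc LIM protein MLP, from 5.67 ± 0.956 to 50.1 ± 2.60 CPM (log2 fold change 3.13, edgeR adjusted p = 4.64e-13), Des, the intermediate filament desmin, from 86.4 ± 4.75 to 472.5 ± 25.6 CPM (2.45, adjusted p = 3.77e-15), and Pdlim3, a Z-disc protein that binds alpha-actinin, from 675 ± 7.54 to 105 ± 19.3 CPM (-2.69, adjusted p = 5.53e-13). Myl3, the ventricular essential light chain, chosen after its values were seen, went from 45.1 ± 2.32 to 129 ± 10.9 CPM (1.52, adjusted p = 1.83e-11).

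The sum over the 36 genes went against their median, from 2490 to 2502 CPM in Vector to 2151 to 2225 CPM in the libraries labelled FTO. The 6 that were lower included the 3 genes of the list with the highest mean CPM over all 6 libraries, a level not divided by length, namely Pdlim3, the small heat shock protein Cryab (-0.25) and the stretch-responsive Ankrd1 (-0.26). The other 3 lower genes, named after their values were seen, were Pdlim5 (-1.16), Fhl2 (-0.98) and Mybphl (-1.73, at 18 counts per library on average). Pdlim5, Fhl2, Cryab and Ankrd1 are used by other cells besides muscle. Use by other cells was not examined for the rest of the list, whether higher or lower. The 2 genes that did not pass were Myh7b (-0.37, edgeR adjusted p = 0.184) and Nrap (0.28, adjusted p = 0.106). Nrap passed without Vector replicate 1 (0.45, adjusted p = 0.0194).

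**Figure D4:**
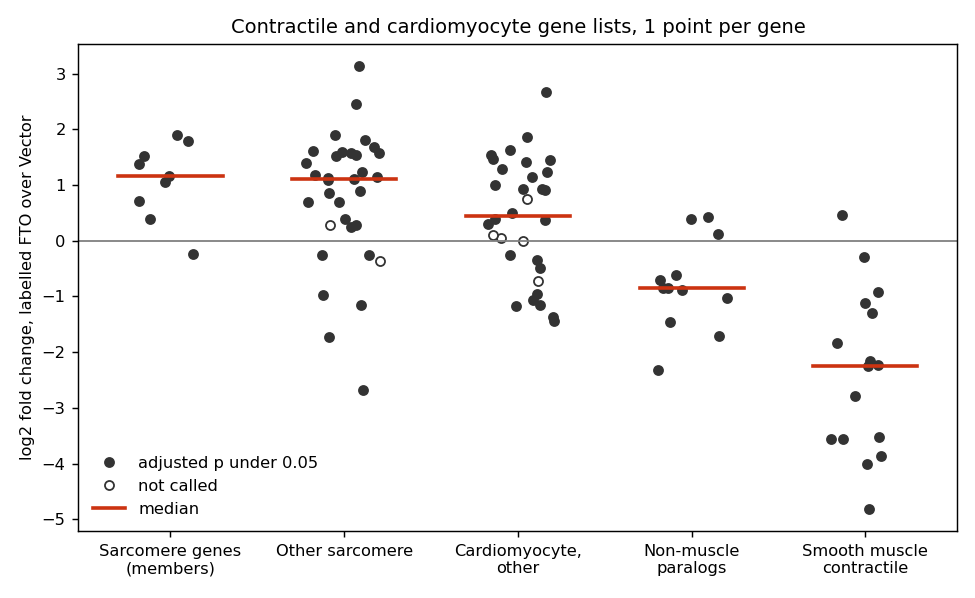
Log2 fold change in the libraries labelled FTO over Vector (vertical axis), 1 point per tested gene, for 5 gene lists (horizontal axis). Filled points have an adjusted p under 0.05, open points do not, and red bars are medians, which are 1.16 for the 9 sarcomere genes, 1.11 for other sarcomere genes, 0.45 for other cardiomyocyte genes, -0.85 for non-muscle paralogs and -2.25 for smooth muscle contractile genes.

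Cardiomyocyte genes outside the sarcomere, for calcium handling, excitation, natriuretic peptides, energy metabolism and cardiac transcription, were more mixed. Of 36 such genes 32 could be tested, of which 18 were higher, 9 were lower and 5 did not pass, against 33.2% higher and 32.8% lower over all genes. The median log2 fold change was 0.45. It was 0.38 to 0.40 with no filter and without Vector replicate 1 or 2 or replicate 2 or 3 labelled FTO. Nppa and Nppb, the natriuretic peptides, went from 271 ± 4.97 to 658 ± 53.3 CPM (log2 fold change 1.28, edgeR adjusted p = 9.30e-12) and from 20.2 ± 0.935 to 128 ± 15.1 CPM (2.66, adjusted p = 2.92e-13). Gja5, the gap junction protein connexin 40 of the atria, the conduction system and arterial endothelium, had a log2 fold change of 1.47. The other genes named by rule were Nkx2-5, a cardiac homeobox factor (1.86), Cox6a2, a muscle subunit of cytochrome oxidase (1.63), and Atp2a2, the calcium pump SERCA2 (0.38), all of which passed the test. The 9 lower genes included Cacna1c, the pore of the L-type calcium channel (-1.17), Tbx20 (-1.37) and Eno3 (-1.44), chosen after their values were seen. The genes that did not pass were Hrc, Fabp3, Ckm (14 to 18 counts per library), Hspb6 and Cox8b. Mb (1 to 12 counts per library) and Ckmt2 (4 to 12) had too few counts to be tested. Cox7a1 and Lrrc10, also not tested, were at or below 3 counts in every library. The summed level of the list was 2021 to 2064 CPM in Vector and 3573 to 3642 CPM in the libraries labelled FTO. Most of that rise was in Gja5, from a mean of 408 to 1132 CPM, and Nppa.

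The non-muscle relatives of the sarcomere proteins went mostly the other way. Of 12 tested, 3 were higher and 9 lower, against 33.2% higher and 32.8% lower over all genes, with a median log2 fold change of -0.85. Myh10, non-muscle myosin IIB, went from 1376 ± 29.3 to 276 ± 27.7 CPM (-2.32, edgeR adjusted p = 2.43e-14), Tpm4 fell by 1.03, Myl6 by 0.84 and Actb by 0.71 on the log2 scale. Myh9 was listed at no more than 3 counts in any library and was not tested. Of the 16 smooth muscle contractile genes, 15 were lower and Synpo2 was higher (0.46), with a median of -2.25 and a summed level of 15047 to 15310 CPM in Vector against 2966 to 3025 CPM in the libraries labelled FTO. Tagln, Actg2 and Cald1 had log2 fold changes of -3.86, -4.82 and -1.12, and Lmod1 went from 144 ± 4.06 to 8.89 ± 1.36 CPM. These genes include Tpm1, which striated muscle uses as well.

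The skeletal muscle list was mixed, beside 33.2% higher and 32.8% lower over all genes. Of 20 with a row, 7 could be tested, with 3 higher, 3 lower and Casq1 not passing (-0.21, edgeR adjusted p = 0.244), and 7 others, among them the muscle-determining factors Myod1, Myog, Myf5 and Pax7, were at or below 3 counts in every library. Acta1, the skeletal alpha-actin that the heart also uses, went from 5.85 ± 0.438 to 28.0 ± 1.21 CPM (log2 fold change 2.25, adjusted p = 1.90e-11), and Mybpc2, the fast skeletal counterpart of Mybpc3, was higher by 2.01. Myh2, a fast skeletal heavy chain, went from 9.28 ± 0.810 to 0.391 ± 0.240 CPM.

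Transcription factors that act on sarcomere genes did not rise as a group. Of 15 tested, 2 were higher, 6 were lower and 7 did not pass, against 33.2% higher and 32.8% lower over all genes. The median log2 fold change was -0.11 (-0.02 to -0.25 with 1 library left out, the ends being without Vector replicate 3 and without replicate 1 labelled FTO, and -0.05 without replicate 2 labelled FTO and -0.21 without Vector replicate 1). Mef2c, of the MEF2 family of factors, went from 61.1 ± 1.80 to 25.0 ± 1.28 CPM (-1.29, edgeR adjusted p = 8.69e-11), Myocd, the partner of serum response factor, fell by 0.46 and Tead4, of the family that binds CATTCC, by 0.43 on the log2 scale. The higher genes, named after their values were seen, were Irx4, a ventricular homeobox factor, from 0.746 ± 0.128 to 5.71 ± 0.629 CPM (2.92, adjusted p = 2.61e-08), and Hand2 (0.57, adjusted p = 0.0343). The call of Hand2 was lost by DESeq2 (adjusted p = 0.0693) and without Vector replicate 1 or 2 or replicate 1 or 2 labelled FTO (edgeR adjusted p = 0.0561 to 0.132). Gata4 differed by -0.03 (adjusted p = 0.602), with a range of -0.05 to 0.00 over the alternatives. Tead1 (-0.26, edgeR adjusted p = 0.0646) was called lower with no filter, under the replicate block and without replicate 3 labelled FTO. Tbx5 was called lower only without replicate 1 labelled FTO, and Yap1 only without Vector replicate 1.

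Markers of other cell types moved between the same groups, and their part in the sarcomere results was not tested. Over all genes tested, 33.2% were higher and 32.8% lower. All 15 fibroblast genes were tested, of which 7 were higher and 7 lower (median -0.06, or -0.02 and -0.10 without replicate 2 or 3 labelled FTO), with a summed level of 60263 to 61224 CPM in Vector and 40457 to 42752 CPM in the libraries labelled FTO. Among them Dcn, Lum and Pdgfra had log2 fold changes of 6.90, 3.15 and 2.49, and Col1a1, Col3a1 and Vim, named after their values were seen, had -1.64, -1.68 and -1.34. All 11 macrophage genes were lower (median -2.18, sum 1888 to 1949 CPM in Vector and 291 to 325 CPM in those labelled FTO), with C1qa at -5.31 and with C1qb and C1qc at or below 3 counts in every library labelled FTO. Of 10 epicardial and mesothelial genes 8 were higher and 1 lower (median 1.40, sum 117 to 123 against 363 to 422 CPM), with Msln at 4.94, Krt18 at 4.24 and Upk1b at 1.96. Their median was 1.57 with the filter on a mean of at least 10 counts and 1.54 without Vector replicate 3. Krt8 lost its call without Vector replicate 3 or replicate 2 labelled FTO, and Krt19 was called only without Vector replicate 3. Of 9 endothelial genes tested 6 were higher and 2 lower (median 0.95, sum 656 to 687 against 729 to 795 CPM), with Ednrb at 3.15, Kdr at 2.13 and Cdh5 at 1.59. The endothelial median was 0.63 and 0.55 without Vector replicate 1 or 2, and 0.64 and 0.66 without replicate 1 or 2 labelled FTO. Except for Cldn5 in the endothelial list, no marker of these 4 lists was at or below 3 counts in every library. The sarcomere genes were counted in every library of both groups, the lowest value being the 83 counts of Tnni3.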

How the data were processed

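Total RNA of 6 libraries, 3 Vector and 3 labelled FTO overexpression, was sequenced after NEBNext Ultra library preparation. The authors deposited raw counts per gene symbol, 1 table for each library, with no normalization. The submitters' processing notes name Trimmomatic and the build rn6, and the aligner, counter, annotation, use of strand and handling of reads that match several genes are not given in the sources used here. Genes were filtered with filterByExpr (minimum count 10), which kept 99.9% of counts, scaled by TMM (factors 0.995 to 1.005) and tested over all 12941 genes with the quasi-likelihood test of edgeR 4.0.16 in R 4.3.3, two-sided and with Benjamini-Hochberg adjustment. CPM values use the TMM-scaled library sizes. Shares of families and ratios of pairs were compared by the exact two-sided permutation test, which cannot go below p = 0.1 with 3 against 3 libraries. A 95% confidence interval is that of the fitted fold change, and the floor of 3 counts covers counting error only.

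The members and the gene lists were chosen with earlier results of these data known. The genes named were all members, Fto, the genes of the family shares and, from each other list, up to 3 with the highest mean CPM and up to 3 with the largest log2 fold change among those called, without overlap and with at least 50 counts per library on average, and from lists of transcription factors and cell types the latter only. Others were named after their values were seen, marked so or not. Among those not marked are Gata4, Synpo2 and genes whose calls differed between alternatives. Mrtfa was matched by its older symbol, and Ttn, Lmod2, Myh1, Myh4, Mrtfb and Itgam had no matching symbol, so their expression was not analysed here. Motifs were searched in RefSeq promoter windows of GRCr8. The alternatives were DESeq2 1.42.0, limma-voom (limma 3.58.1), DESeq2 size factors, library size alone, another filter or none, the replicate number as a block, 1 count added to shares, and each library left out in turn. The alternatives for the pair ratios (1 count added, each library left out) were chosen after seeing the data. The code for the test was tested on simulated data. Replicates did not look like copies, since a chi-square test between replicates gave 1.58 to 8.38 per degree of freedom, above the value of about 1 that sampling noise gives.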

Additional observations from a re-analysis of the deposited data

How the results depend on the processing

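The count of sarcomere genes called was 9 under each of the 13 alternatives, and 6 of the 9 passed the study's threshold in each. The largest adjusted p over the alternatives was 7.97e-04 for Tnnt2 and 8.83e-05 for Myh7. Replicates with the same number did not deviate together (correlations of -0.08 to 0.04, against -0.12 to 0.11 for different numbers). No pairing by number was seen, but 3 libraries a group cannot exclude it. With the replicate number as a block, 9 sarcomere genes and 8399 of all genes were called, against 8531 without the block. DESeq2 called 7795. Of the 31 other sarcomere genes, 30 or 31 were called, with Myom1 lost by DESeq2, under the block and without Vector replicate 1 or 2 or replicate 1 or 3 labelled FTO. Of the 27 other cardiomyocyte genes, 24 to 27 were called, with Corin, Pgam2 and Slc8a1 among those lost, and Tpm3 was lost without Vector replicate 2 or 3. The number of pairs without overlap was 30 to 32. The median of the transcription factor list was -0.25 by limma-voom. None of the sarcomere genes changed direction under these alternatives, while Ckm, Fabp3, Mef2a, Gata4, Gata6, Tbx5, Yap1 and Tie1, which did not pass the test, crossed 0. Depth limits the genes near the floor, and 4691 symbols were at 0 in every library. The test rests on 3 libraries a group whose independence the labels do not state.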
